A study of Homo sapiens with 5 samples.

Results

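The 10 genes described here encode the core of microfibrils and elastic fibres and are a list of names: FBN1, FBN2, ELN, FBLN1, FBLN5, LTBP1, LTBP2, LTBP3, LTBP4 and MFAP2. All 10 were found by Ensembl identifier among the 19936 human genes in the files. RNA was sequenced from LX-2, an immortalised stellate cell line of human liver; stellate cells lay down most of the scar matrix there. The cells had been transfected 48 h earlier with small interfering RNA (siRNA) against LIX1L, here siLIX1L (3 libraries), or with a control siRNA (2 libraries). No untransfected cells were analysed here, all libraries come from 1 cell line, and the sources used here do not give the siRNA sequences or their number. The series title links LIX1L to the stability of the chemokine mRNA CCL20 and to fibrosis.

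Fibrillins polymerise into microfibrils, which give tissue its elastic scaffold and hold growth factors in the matrix. Elastin is deposited on microfibrils with the help of fibulins, and is crosslinked by lysyl oxidases. Latent TGF-β binding proteins (LTBPs) resemble fibrillins, and LTBP1, LTBP3 and LTBP4 bind the latent form of TGF-β, the main fibrogenic cytokine of the liver, and tether it to the matrix. LTBP2 does not bind it. In fibrotic liver, activated stellate cells and portal fibroblasts are known sources of fibrillin and elastin.

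To show the DNA just before the transcription starts, 250 bases upstream of RefSeq starts (GRCh38.p14) were read for the 9 of 10 genes found in the RefSeq table, 15 windows in all. Both strands were searched for 4 short motifs. The GC box, bound by SP factors, was written GGGCGG for this search. The core promoter element known as the TATA box was written TATAAA in the same way. For the factors of the AP-1 family, which FOS and JUN proteins form, the letters searched were TGANTCA on either strand. For the zinc finger factors of the EGR family they were GCGNGGGCG, which can overlap a GC box. Printed are the windows of FBN1 and FBN2, the 2 fibrillins, and of FBLN1, the gene with the lowest fold change. Also printed is that of the downstream start of LTBP4, the window with most matches. These windows lie inside the gene spans given below, so the annotation of those spans has starts further upstream. Each is given 5′ to 3′ on the gene's strand, at chr15:48644971-48645220 (minus strand) for FBN1, chr5:128538246-128538495 (minus) for FBN2, chr22:45502633-45502882 (plus) for FBLN1 and chr19:40601119-40601368 (plus) for LTBP4, with motif matches in capitals.
FBN1: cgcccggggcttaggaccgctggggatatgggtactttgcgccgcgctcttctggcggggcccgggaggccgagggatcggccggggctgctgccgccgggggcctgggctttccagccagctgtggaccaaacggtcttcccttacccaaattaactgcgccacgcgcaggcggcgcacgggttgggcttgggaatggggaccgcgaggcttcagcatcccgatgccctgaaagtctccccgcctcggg
FBN2: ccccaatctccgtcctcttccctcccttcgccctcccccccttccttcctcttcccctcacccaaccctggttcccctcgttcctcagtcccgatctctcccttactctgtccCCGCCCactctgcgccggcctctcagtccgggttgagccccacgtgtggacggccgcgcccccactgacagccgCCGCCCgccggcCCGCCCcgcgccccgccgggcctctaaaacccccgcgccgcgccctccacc
FBLN1: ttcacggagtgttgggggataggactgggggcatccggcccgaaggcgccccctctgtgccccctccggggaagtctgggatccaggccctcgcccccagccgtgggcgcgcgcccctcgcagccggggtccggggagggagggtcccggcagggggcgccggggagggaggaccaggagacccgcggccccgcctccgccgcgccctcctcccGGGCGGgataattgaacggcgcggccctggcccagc
LTBP4: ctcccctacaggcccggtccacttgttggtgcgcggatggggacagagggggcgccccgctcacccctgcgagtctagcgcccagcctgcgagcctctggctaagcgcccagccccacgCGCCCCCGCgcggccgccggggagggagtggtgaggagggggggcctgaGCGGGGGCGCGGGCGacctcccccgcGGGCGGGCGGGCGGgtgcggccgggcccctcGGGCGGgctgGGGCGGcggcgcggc

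The FBN1 window, 69.6% GC, held none of the 4 motifs. The FBN2 window had 3 GC boxes and the FBLN1 window had 1. The LTBP4 window, 81.6% GC, had 5 GC boxes and 3 EGR matches. A GC box was found in 7 of the 9 members (10 of 15 windows), against 42.6% of all 35116 RefSeq windows of this length. EGR matches were found in windows of FBLN5, LTBP3 and LTBP4, against 8.41% of all windows, a TATA box in 1 FBLN5 window (10.7% of all) and an AP-1 match in 1 MFAP2 window (6.57% of all). These matches describe letters in the windows only.

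The libraries held 14856104 to 17811940 reads over genes after LIX1L siRNA and 14877647 and 18294056 in the controls. Levels are given as RPM, reads per 1000000 of these totals, and the 3 reads that a gene with no read could still have correspond to 0.164 to 0.202 RPM. Intervals and this limit cover counting error only. LIX1L, the targeted gene, had 98, 107 and 65 reads in siLIX1L 1, 2 and 3, against 393 and 649 in control 1 and 2, and was lower (log2 difference -2.36, SE 0.33, limma adjusted p = 0.0379). It was lower in all 17 other settings and passed in 10 of them. The pair siLIX1L 1 and 2 had a biological coefficient of variation of 6.30%, against 22.1 to 39.9% for the other pairs. Nothing in the labels states that libraries were separate cultures, so p-values measure only how far these libraries scatter, and that scatter may be technical. Mitochondrial genes took 1.08 to 1.29% of reads in the siLIX1L libraries and 2.24 and 3.35% in the controls. All 11 stellate cell or fibroblast markers were above 3 reads, with a summed level of 5232 to 6274 RPM in siLIX1L and 3442 and 8855 RPM in control libraries, most of it COL1A1. Of these markers, COL1A2, ACTA2, THY1, LUM and DCN were lower in every siLIX1L library than in both controls. Over all genes tested, 21.8% were lower in this way, and 44.4% did not overlap in either direction. ACTA2 was at 8.41 to 14.8 RPM in siLIX1L and 39.0 and 35.4 RPM in control libraries. LUM was at 14.5 to 16.0 RPM in siLIX1L and 16.2 and 93.2 RPM in control libraries. COL1A1, COL3A1, COL5A1, PDGFRB, VIM and TAGLN overlapped between the groups. Among markers of other cell types, ALB, APOA1, APOB, TTR and CYP3A4 of hepatocytes, CDH5 of endothelium and CDH1 of epithelium were at or under 3 reads everywhere. The rest of these lists, 1 of 6 hepatocyte, 4 of 5 endothelial and 3 of 4 epithelial markers, were above 3 reads in at least 1 library. SERPINA1 of hepatocytes had 23 to 116 reads, KDR of endothelium 23 to 64 and KRT7 of epithelium 16 to 61. The summed markers of macrophages and leukocytes were 5.73 to 9.47 RPM in siLIX1L and 10.4 and 37.8 RPM in control libraries. CD14 made up most of it, at 4.72 to 7.81 RPM in siLIX1L and 8.81 and 35.7 RPM in control libraries. PTPRC and CSF1R overlapped between the groups, and CD68 had at most 1 read and MARCO at most 4. The summed markers of vascular smooth muscle were 8.67 to 20.9 RPM in siLIX1L and 19.0 and 27.4 RPM in control libraries. CNN1 made up most of this sum and, like DES and LMOD1, overlapped between the groups. MYH11 was higher in every siLIX1L library, at 0.954 to 1.21 RPM against 0.336 and 0.765 RPM in control libraries. The part of these markers in the results was not tested.

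Of the 10 genes, 8 had at least 1 RPM in every library and entered the test, and ELN and MFAP2 did not. Among the 8, FBN1 rose after LIX1L siRNA and none fell. The threshold was an adjusted p of 0.05 over the 12585 genes tested with limma on log2(RPM + 0.5), and 1.01% of all genes passed it (0.477% higher and 0.532% lower). At an unadjusted p under 0.05, 3 of the 8 passed, against 25.4% of all genes. None of the 8 was called by edgeR, which called 0.891% of all genes (0.384% higher and 0.507% lower). DESeq2 called FBN1 higher and FBLN1 and LTBP4 lower, against 12.5% of all genes (6.32% higher and 6.22% lower), as did limma with the replicate number as a block, against 6.8% of all genes. The differences of the 8 ran from -1.35 to 1.20 on the log2 scale, 3 positive and 5 negative, with a median of -0.42 against -0.0041 over all genes tested. The 2 groups of libraries did not overlap in 6 of the 8, 1 higher and 5 lower, against 44.4% of all genes tested (22.6% higher and 21.8% lower). RPM is a share of all counted reads of a library, so fewer cells expressing a gene and less RNA per cell cannot be told apart.

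**Figure D1:**
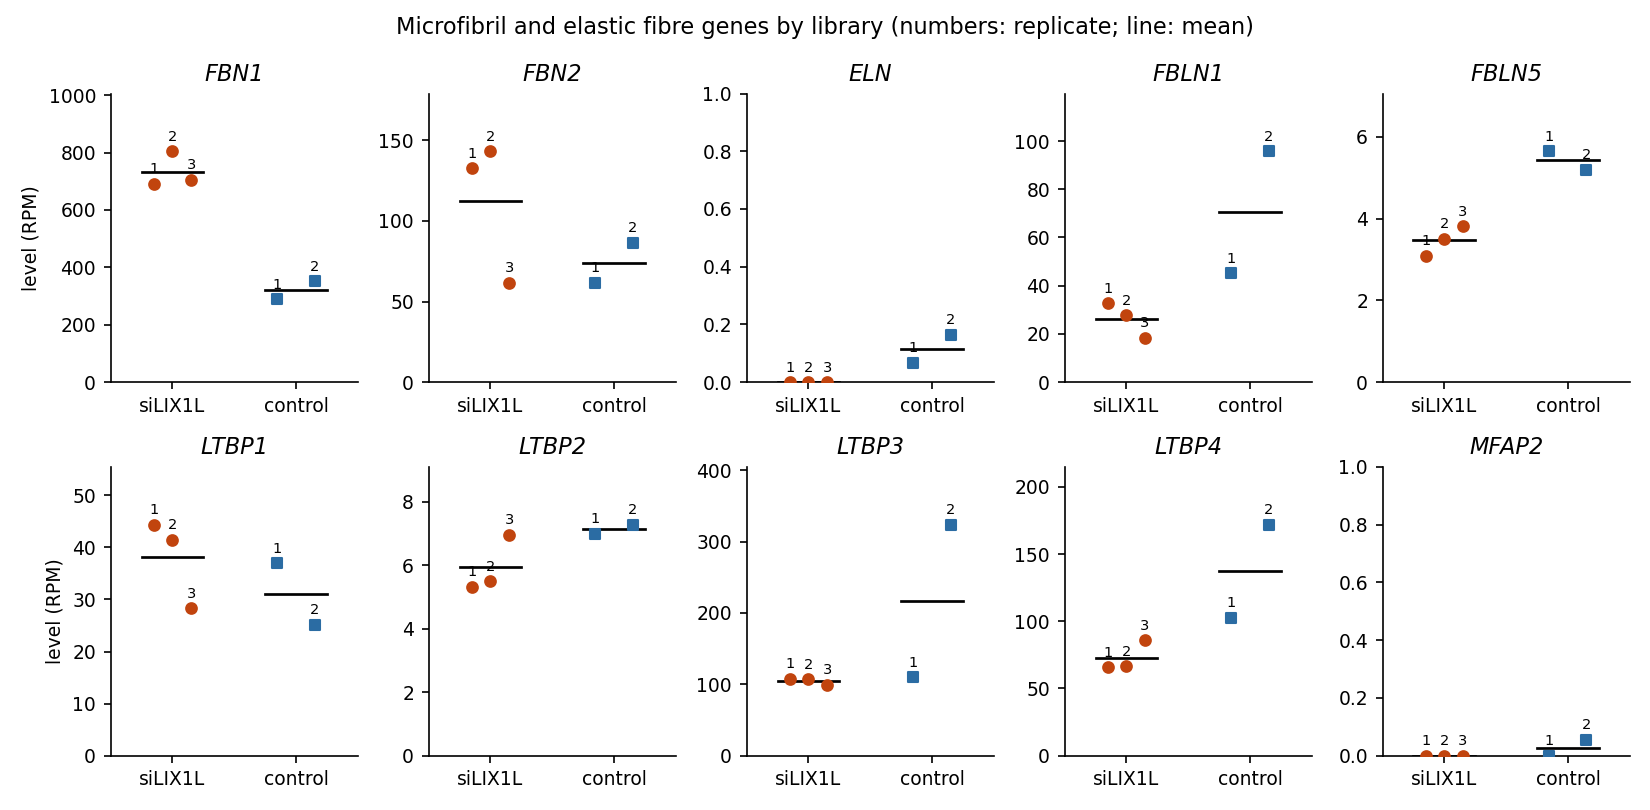
Level of each of the 10 genes in RPM (vertical axes start at 0 and differ between panels), siLIX1L libraries as circles and control libraries as squares, numbered by replicate, with the mean as a line. FBN1 is at 691 to 805 RPM in the 3 siLIX1L libraries and at 289 and 352 RPM in the controls, and ELN and MFAP2 stay under 0.2 RPM.

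Fibrillin 1, from FBN1 (ENSG00000166147, GRCh38 chromosome 15, 48408306 to 48645849, minus strand), is the main structural protein of microfibrils in adult tissue. FBN1 stood at 691, 805 and 706 RPM in siLIX1L 1, 2 and 3, against 289 and 352 RPM in control 1 and 2. All 3 siLIX1L libraries were above both controls, with a gap wider than the spread within either group. The means were 734 ± 61.7 RPM (SD, n = 3) after LIX1L siRNA and 320.3 ± 44.3 RPM (SD, n = 2) in controls, a 2.29-fold higher level (log2 difference 1.20, SE 0.19, limma adjusted p = 0.0434). Over the pooled reads the ratio was 2.26 with an exact 95% interval of 2.22 to 2.31. The direction held in all 17 other settings tried (log2 difference 0.80 to 1.34), and the call held in 9 and was lost in 8. It was lost in edgeR (adjusted p = 0.0542) and with a trend on transcript length and GC content removed (log2 difference 0.90, limma adjusted p = 0.0838). It was also lost without siLIX1L 1, 2 or 3 (limma adjusted p = 0.166, 0.248 and 0.0881), where limma called 0 genes of the whole table (1905, 1661 and 3090 at an unadjusted p under 0.05).

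Fibrillin 2, from FBN2 (ENSG00000138829, GRCh38 chromosome 5, 128257909 to 128659185, minus strand), is the fibrillin best known from development. It had 133, 143 and 61.7 RPM in siLIX1L 1, 2 and 3 and 61.6 and 86.4 RPM in control 1 and 2. Libraries siLIX1L 1 and 2 lay above both controls, while siLIX1L 3 lay between them, so the groups overlapped. The mean was 113 ± 44.3 RPM (SD, n = 3) after LIX1L siRNA and 74.0 ± 17.6 RPM (SD, n = 2) in controls, and the difference did not pass (log2 difference 0.53, SE 0.38, limma adjusted p = 0.416; 0.91 with adjusted p = 0.114 without siLIX1L 3). The span of FBN2 overlaps SLC27A6 on the opposite strand, which itself had 3 reads or fewer in each library. Per kilobase of transcript, FBN1 exceeded FBN2 4.93, 5.32 and 10.8 times in siLIX1L 1, 2 and 3 and 4.44 and 3.85 times in control 1 and 2. FBN1 made up 83.1, 84.2 and 91.6% of the fibrillin signal in the siLIX1L libraries and 81.6 and 79.4% in the controls.

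The 4 LTBPs did not share 1 pattern. LTBP2, LTBP3 and LTBP4 had lower means after LIX1L siRNA and LTBP1 a higher one, and none passed the test. LTBP3 (ENSG00000168056, GRCh38 chromosome 11, 65538805 to 65558930, minus strand) had 108, 107 and 99.7 RPM in siLIX1L 1, 2 and 3 and 109.8 and 324 RPM in control 1 and 2. Control 1 was level with the siLIX1L libraries and control 2 alone was high, 2.95 times control 1, a gap between controls wider than that of 96.6% of genes tested. The mean was 105 ± 4.49 RPM (SD, n = 3) after LIX1L siRNA and 217 ± 151 RPM (SD, n = 2) in controls, a log2 difference of -0.84 (SE 0.41, limma adjusted p = 0.248). The log2 difference was -0.07 without control 2 (limma adjusted p = 0.798) and -1.62 without control 1 (limma adjusted p = 0.0139, in a fit that called 23.4% of all genes).

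LTBP4 (ENSG00000090006, GRCh38 chromosome 19, 40592883 to 40629818, plus strand), whose product also takes part in elastin assembly with fibulin 5, had 65.8, 66.4 and 86.0 RPM in siLIX1L 1, 2 and 3 and 103 and 172 RPM in the controls. All siLIX1L libraries were below both controls, and control 2 was again the higher of the pair. The mean was 72.7 ± 11.5 RPM (SD, n = 3) after LIX1L siRNA and 137 ± 49.0 RPM (SD, n = 2) in controls, 1.89-fold lower, and did not pass (log2 difference -0.88, SE 0.27, limma adjusted p = 0.109). It was 2.36-fold lower without control 1 and passed (limma adjusted p = 0.0197), and 1.41-fold lower without control 2, where it did not (limma adjusted p = 0.194). It passed in DESeq2 (adjusted p = 0.0357).

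LTBP1 (ENSG00000049323, GRCh38 chromosome 2, 32946972 to 33399509, plus strand), which binds latent TGF-β1, had 44.4, 41.5 and 28.4 RPM in siLIX1L 1, 2 and 3 and 37.0 and 25.1 RPM in the controls. The groups overlapped, since siLIX1L 3 lay between the controls. The mean was 38.1 ± 8.54 RPM (SD, n = 3) after LIX1L siRNA and 31.1 ± 8.36 RPM (SD, n = 2) in controls (log2 difference 0.29, SE 0.28, limma adjusted p = 0.541). LTBP2 (ENSG00000119681, GRCh38 chromosome 14, 74498170 to 74612378, minus strand) was low throughout, at 5.32, 5.50 and 6.96 RPM in siLIX1L 1, 2 and 3 and 6.99 and 7.27 RPM in the controls. Its groups did not overlap, but siLIX1L 3 and control 1 lay almost level. The mean was 5.92 ± 0.902 RPM (SD, n = 3) after LIX1L siRNA and 7.13 ± 0.198 RPM (SD, n = 2) in controls, and the difference did not pass (log2 difference -0.26, SE 0.25, limma adjusted p = 0.552).

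The fibulins in the set had lower levels in every siLIX1L library than in both controls. Fibulin 1, from FBLN1 (ENSG00000077942, GRCh38 chromosome 22, 45502238 to 45601135, plus strand), a calcium-binding matrix protein found in elastic fibres and bound to fibronectin, had 32.6, 27.7 and 18.4 RPM in siLIX1L 1, 2 and 3 and 45.2 and 95.8 RPM in control 1 and 2. The groups were separate, but control 2 held 2.12 times the level of control 1. The mean was 26.2 ± 7.25 RPM (SD, n = 3) after LIX1L siRNA and 70.5 ± 35.7 RPM (SD, n = 2) in controls, 2.69-fold lower, the lowest ratio of the 8. It did not pass in limma (log2 difference -1.35, SE 0.37, adjusted p = 0.0926) or edgeR (adjusted p = 0.0808) and passed in DESeq2 (adjusted p = 0.00563). Without control 1 it was 3.65-fold lower and passed (limma adjusted p = 0.0234), and without control 2 it was 1.72-fold lower (limma adjusted p = 0.194).

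Fibulin 5, from FBLN5 (ENSG00000140092, GRCh38 chromosome 14, 91869412 to 91947987, minus strand), binds tropoelastin and is needed for elastic fibre assembly in mice. It had 3.10, 3.51 and 3.82 RPM in siLIX1L 1, 2 and 3 and 5.65 and 5.19 RPM in control 1 and 2. The groups were separate with little spread inside either, at 46 to 68 reads after LIX1L siRNA and 84 and 95 reads in controls. It was 1.56-fold lower and did not pass (log2 difference -0.58, SE 0.25, limma adjusted p = 0.207), and it passed in none of the 16 other settings that tested it.

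**Figure D2:**
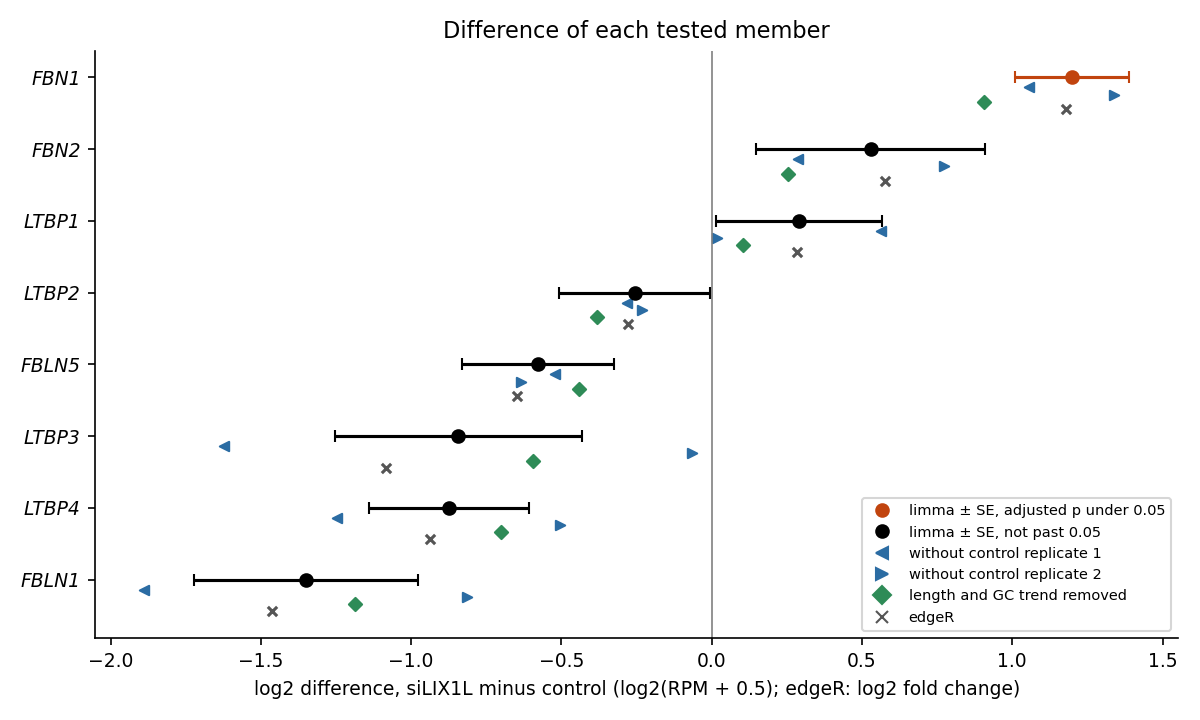
Log2 difference, siLIX1L minus control, of the 8 tested genes on the horizontal axis, with limma's standard error as bars and 4 other settings as symbols under each. FBN1 alone is past an adjusted p of 0.05, and LTBP3 lies at -1.62 without control 1 and at -0.07 without control 2.

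ELN (ENSG00000049540, GRCh38 chromosome 7, 74027789 to 74069907, plus strand), which encodes the elastin precursor, was listed at 0 reads in all 3 siLIX1L libraries and at 1 and 3 reads in control 1 and 2. MFAP2 (ENSG00000117122, GRCh38 chromosome 1, 16974502 to 16980835, minus strand), which encodes the small microfibril glycoprotein MAGP1, was listed at 0 reads in all siLIX1L libraries and at 0 and 1 in the controls. Both were at or under the 3 reads that a count of 0 allows, so no fold is given. Annotated antisense genes overlap 2709 bases of ELN and 1910 of the 6334 bases of MFAP2. Annotated genes of the opposite strand also overlap LTBP1 and LTBP2, which had 460 to 659 and 79 to 133 reads. The sources used here do not say how reads over overlapping genes were counted. MIF, a gene active in nearly all cells and singled out after its values were seen, was likewise listed at 0 or 1 read in each library, so a value of 0 is given here only as listed.

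To set the genes beside each other, levels were divided by the length of the longest coding transcript. The FPKM deposited by the authors is per kilobase of gene span with introns, and exons make up 1.62% of that span in LTBP1 and 51.2% in LTBP3. After LIX1L siRNA, FBN1 was highest in each library at 62.4 ± 5.24 RPM per kb (SD, n = 3), followed in each by LTBP3 at 23.6 ± 1.01 and LTBP4 at 14.5 ± 2.29 RPM per kb. FBN2 at 10.1 ± 3.98 and FBLN1 at 9.06 ± 2.50 RPM per kb changed places in siLIX1L 3, LTBP1 followed at 6.01 ± 1.35, and FBLN5 at 1.43 ± 0.149 and LTBP2 at 0.692 ± 0.105 RPM per kb were lowest. In controls the upper 4 lay within the spread of the 2 libraries: LTBP3 at 48.8 ± 34.0, LTBP4 at 27.3 ± 9.74, FBN1 at 27.2 ± 3.77 and FBLN1 at 24.3 ± 12.3 RPM per kb (SD, n = 2). Below them came FBN2 at 6.65 ± 1.58 and LTBP1 at 4.90 ± 1.32 RPM per kb, which changed places in control 1, and then FBLN5 at 2.24 ± 0.132 and LTBP2 at 0.832 ± 0.0231 RPM per kb. Among all genes with a read and a coding transcript, FBN1 stood at the 92.5th to 94.0th percentile in siLIX1L libraries and at the 79.1st and 83.9th in controls.

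The mix of the 10 mRNAs differed between the groups in these libraries. FBN1 took 45.9, 50.02 and 50.8% of their summed level per kilobase in siLIX1L 1, 2 and 3 and 24.6 and 16.2% in control 1 and 2. The 4 LTBPs together took 35.0, 32.5 and 37.9% in the siLIX1L libraries and 51.8 and 60.5% in the controls, and FBLN1 took 8.79, 6.98 and 5.36% in the siLIX1L libraries and 15.6 and 17.9% in the controls. Neither group overlapped the other in any of these 3 shares, which follow from the gene levels above and are not tested apart from them. The summed LTBP level was nearly the same in all siLIX1L libraries, 44.5 to 44.9 RPM per kb, and was 51.7 and 112 RPM per kb in the controls.

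**Figure D3:**
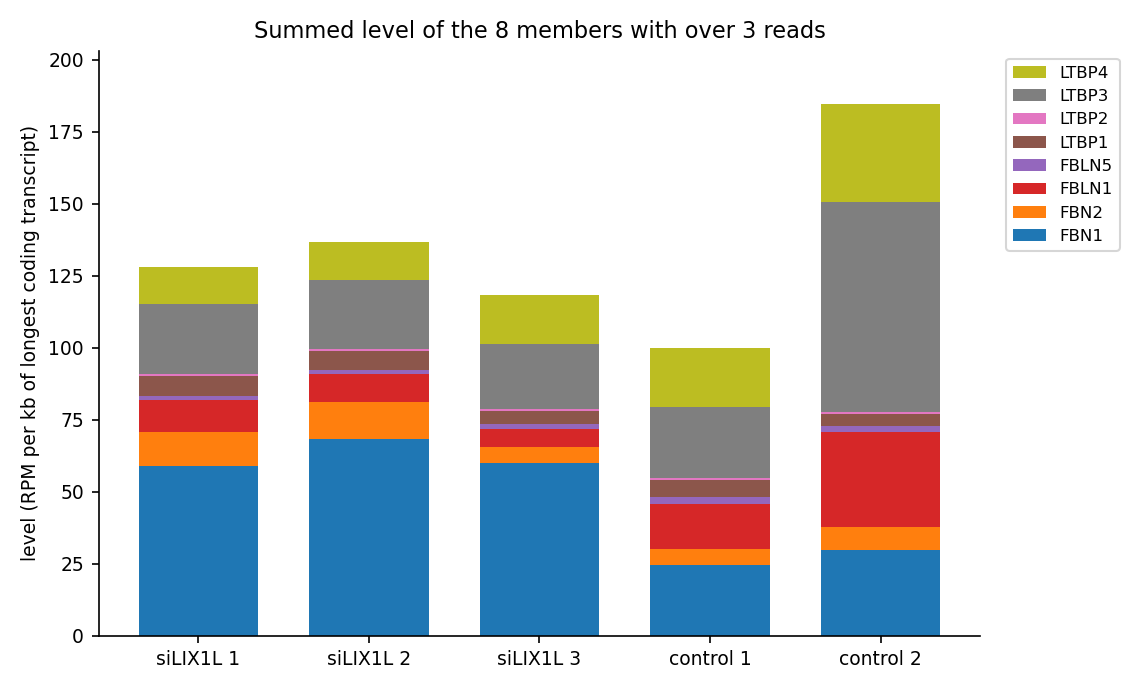
Level in RPM per kilobase of longest coding transcript, stacked by gene for each library, with the siLIX1L libraries left of the controls; ELN and MFAP2 are too low to draw. The FBN1 segment is larger in the 3 siLIX1L libraries (58.8 to 68.4) than in the controls (24.6 and 29.9), and control 2 has the tallest LTBP3 segment at 72.8.

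The 10 genes differ in transcript length and base content, and both went with the differences over all genes. Among 3884 tested genes with a transcript over 3.52 kb and a GC content under 48.5%, the medians over all, the median log2 difference was 0.25 and 68.8% were positive, whereas among 3887 genes that were shorter and richer in GC it was -0.26 and 29.4% were positive. The fibrillin transcripts are long and low in GC, 11.8 kb and 46.7% for FBN1 and 11.1 kb and 48.0% for FBN2. LTBP3 (4.44 kb, 67.8%) and LTBP4 (5.03 kb, 66.7%) have the highest GC content of the 8, and the FBLN1 transcript is 2.90 kb with 57.01% GC. The transcripts of LTBP3 and LTBP4 are long as well as rich in GC. Among the 2399 tested genes of that kind the median log2 difference was 0.11 and 58.1% were positive. With the trend removed, the direction of all 8 was kept. The positive log2 differences were then 0.90 for FBN1, 0.25 for FBN2 and 0.10 for LTBP1, and the negative ones -0.38 for LTBP2, -0.44 for FBLN5, -0.59 for LTBP3, -0.70 for LTBP4 and -1.19 for FBLN1. In that fit limma called 0 genes of the whole table (2915 at an unadjusted p under 0.05). The part of length and GC content in the differences was not tested beyond this.

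**Figure D4:**
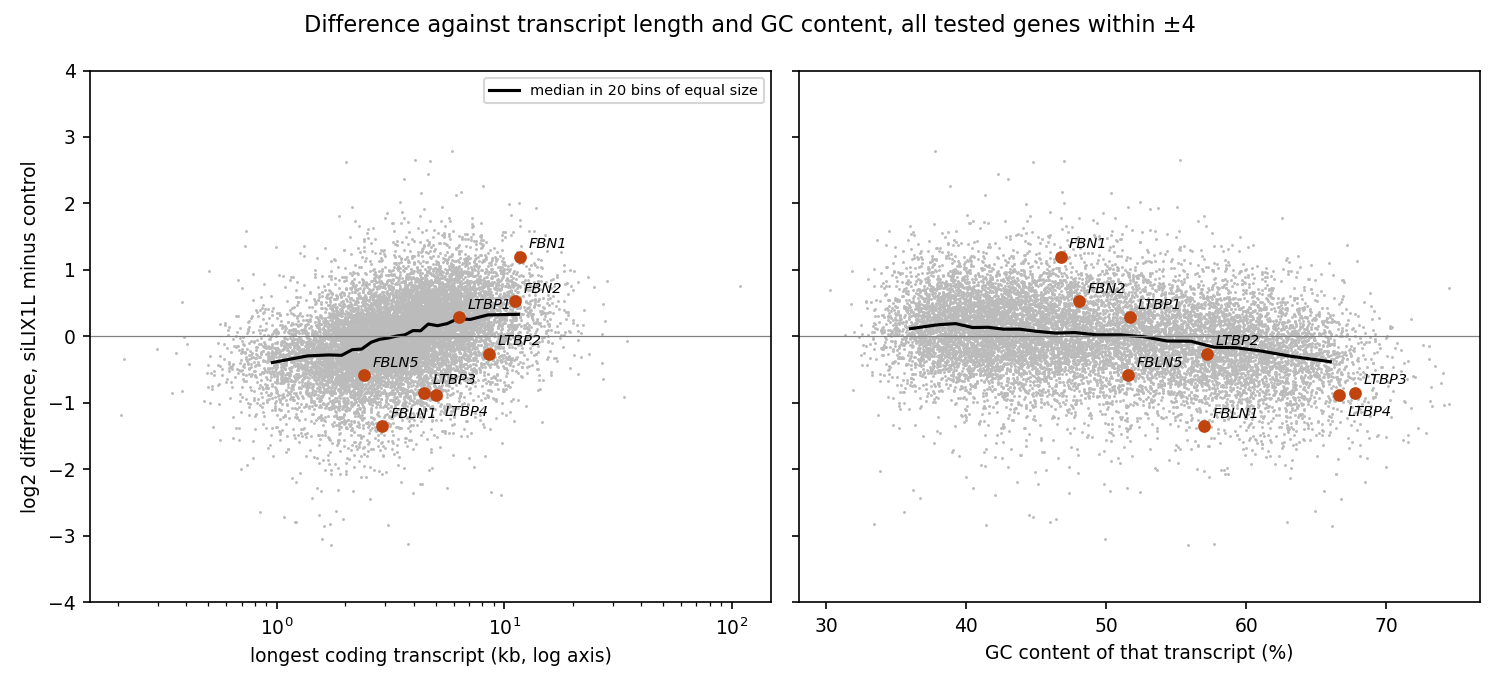
Log2 difference, siLIX1L minus control, against the length of the longest coding transcript (log axis, left) and its GC content (right) for 12570 tested genes in grey, with the median in 20 bins as a line and the 8 members in colour; 2 genes lie beyond the axis limits. Long transcripts and low GC content go with positive differences, and FBN1 (1.20) lies above the line while FBLN1 (-1.35) lies below it.

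Of 13 other genes listed with these fibres or as relatives of their proteins, 7 were above the minimum. Of these 7, 2 fell, none rose and 5 did not pass in limma, against 1.01% of all genes called (0.477% higher and 0.532% lower). At an unadjusted p under 0.05 in limma there were 4 of 7, against 25.4% of all genes. The calls were 2 in edgeR and 3 in DESeq2, against 0.891% and 12.5% of all genes. The median log2 difference was -0.86, against -0.0041 over all genes tested, and 6 of 7 were negative. EFEMP1, which encodes fibulin 3, a matrix glycoprotein that binds TIMP3, had 11.7, 9.93 and 12.6 RPM in siLIX1L 1, 2 and 3 and 40.8 and 56.7 RPM in the controls. It fell 4.28-fold (log2 difference -2.04, SE 0.24, limma adjusted p = 0.0357; edgeR adjusted p = 0.0373). FBLN7, a further fibulin, had 4.85, 4.97 and 4.44 RPM in siLIX1L 1, 2 and 3 and 14.0 and 17.3 RPM in the controls. It fell 3.30-fold (log2 difference -1.62, SE 0.24, limma adjusted p = 0.0403; edgeR adjusted p = 0.0449). EFEMP2, or fibulin 4, needed for elastic fibre formation and lysyl oxidase recruitment in mice, averaged 61.6 ± 3.32 RPM (SD, n = 3) after LIX1L siRNA and 168 ± 71.2 RPM (SD, n = 2) in controls and missed the threshold (limma adjusted p = 0.0568). MFAP3 averaged 25.8 ± 4.68 RPM in siLIX1L and 14.8 ± 4.97 RPM in control libraries (limma adjusted p = 0.139). Leaving out any 1 siLIX1L library ended the calls of EFEMP1 (limma adjusted p = 0.0877 to 0.185) and FBLN7 (limma adjusted p = 0.0881 to 0.244). With the length and GC trend removed, where limma called 0 genes in all, the log2 difference was -2.06 for EFEMP1 (limma adjusted p = 0.0535) and -1.28 for FBLN7 (limma adjusted p = 0.0679).

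Genes that assemble and crosslink the fibres, 18 of 21 measured, gave no call in limma or edgeR. At an unadjusted p under 0.05 in limma there were 5 of 18, against 25.4% of all genes. DESeq2 called 5 of all 21, against 12.5% of all genes: LOXL3, LOXL4, ADAMTSL4, FKBP10 and ADAMTS10. ADAMTS10 was under the minimum for limma. It had 12, 10 and 12 reads in siLIX1L 1, 2 and 3 and 13 and 104 in control 1 and 2. There were 7 positive and 11 negative differences and a median log2 difference of -0.23. LOXL4, of the lysyl oxidase family that crosslinks elastin and collagen, averaged 1.67 ± 0.552 RPM after LIX1L siRNA and 5.69 ± 1.39 RPM in controls (limma adjusted p = 0.0655). ADAMTSL4, whose product binds fibrillin 1, averaged 15.5 ± 1.46 RPM after LIX1L siRNA and 39.6 ± 15.4 RPM in controls (limma adjusted p = 0.0655). FKBP10, a collagen and tropoelastin chaperone, averaged 141 ± 9.72 RPM after LIX1L siRNA and 246 ± 60.8 RPM in controls (limma adjusted p = 0.09002). LOXL3, also a lysyl oxidase, averaged 2.26 ± 1.055 RPM after LIX1L siRNA and 6.28 ± 0.236 RPM in controls (limma adjusted p = 0.0993). These 4 had the smallest p of the list. The fifth gene at an unadjusted p under 0.05 was FN1, which encodes fibronectin and is named here after its values were seen. It had 2558, 2872 and 2800.1 RPM in siLIX1L 1, 2 and 3 and 2099 and 1795 RPM in control 1 and 2 (limma adjusted p = 0.156). Of the 18 genes, 7 did not overlap between the groups, 2 higher and 5 lower, against 44.4% of all genes tested (22.6% higher and 21.8% lower).

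Among 11 of 14 measured genes of latent TGF-β and its activation, none passed in limma, edgeR or DESeq2, and 0 had an unadjusted p under 0.05 in limma. The median log2 difference was 0.16. TGFB1, the main fibrogenic ligand, averaged 73.1 ± 10.4 RPM after LIX1L siRNA and 114 ± 47.9 RPM in controls (limma adjusted p = 0.252). ITGB1, the integrin β1 chain, had 466 and 519 RPM in siLIX1L 1 and 2 but 2062 RPM in siLIX1L 3, against 1567 and 2169 RPM in the controls (limma adjusted p = 0.261). NRROS, which holds latent TGF-β1 on cells, averaged 3.31 ± 0.719 RPM in siLIX1L and 2.04 ± 1.49 RPM in control libraries (limma adjusted p = 0.335). TGFB3, a TGF-β ligand, averaged 1.37 ± 0.509 RPM in siLIX1L and 0.937 ± 0.375 RPM in control libraries (limma adjusted p = 0.532).

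Of 17 enzymes that degrade elastin and their inhibitors, 13 were measured, 2 with positive and 11 with negative differences (median log2 difference -0.62), and none passed in limma or edgeR. At an unadjusted p under 0.05 in limma there were 5 of 13, against 25.4% of all genes, and DESeq2 called 5, against 12.5% of all genes. TIMP3, a matrix-bound inhibitor of metalloproteinases, was nearest at 578, 585 and 415 RPM in siLIX1L 1, 2 and 3 and 238 and 198 RPM in the controls (2.41-fold higher, limma adjusted p = 0.0514), and it passed without control 1 (limma adjusted p = 0.0210). The elastolytic cathepsin CTSV averaged 13.4 ± 1.95 RPM after LIX1L siRNA and 40.4 ± 19.4 RPM in controls (limma adjusted p = 0.0655). The cathepsin inhibitor CST3 averaged 236 ± 32.8 RPM after LIX1L siRNA and 436 ± 133 RPM in controls (limma adjusted p = 0.0974). MMP2, or gelatinase A, had 111, 119.5 and 34.1 RPM in siLIX1L 1, 2 and 3 and 147 and 400.1 RPM in the controls (limma adjusted p = 0.159). Without control 1, where 23.4% of all genes passed, limma also called EFEMP2, MFAP3, LOXL4, ADAMTSL4, FKBP10, TGFB1, NRROS, CTSV and CST3 (adjusted p = 0.0139 to 0.0409). Without control 2, limma called EFEMP2 of these (adjusted p = 0.0479) and not the others (adjusted p = 0.0722 to 0.910), with log2 differences of -0.14 for TGFB1 and 0.07 for NRROS. SDs in these lists are over n = 3 siLIX1L and n = 2 control libraries.

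**Figure D5:**
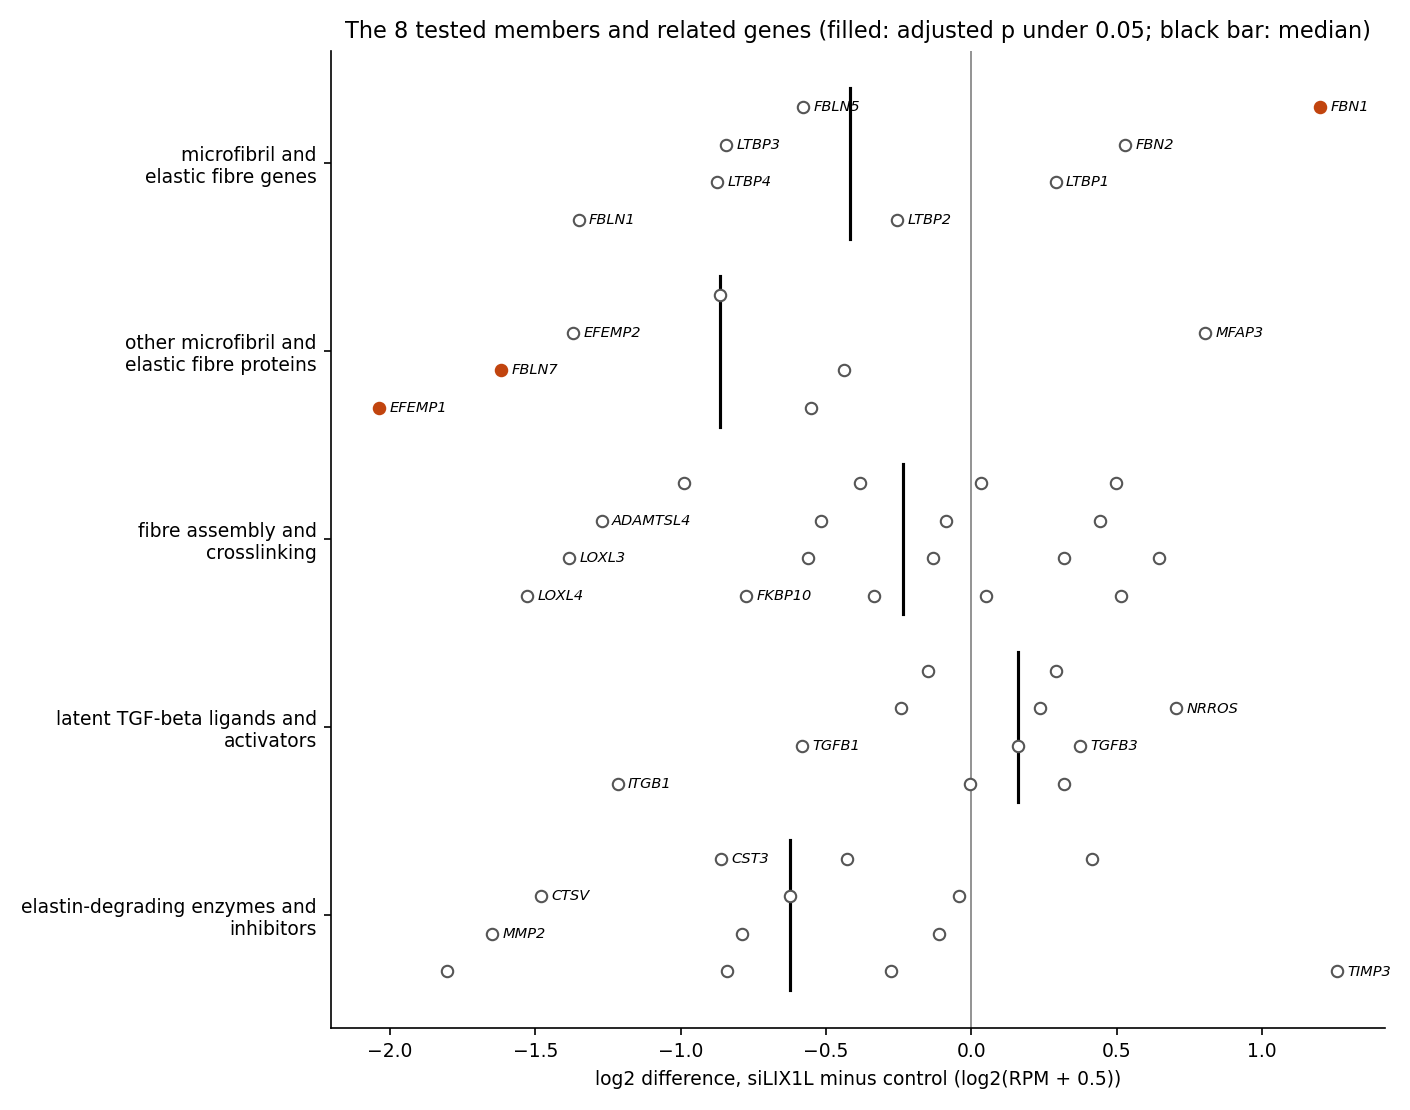
Log2 difference, siLIX1L minus control, of each tested gene in the 10-gene set (top row) and in the 4 lists beside it, filled where the limma adjusted p is under 0.05, with the median of each list as a black bar. FBN1 is the one filled point on the right and EFEMP1 and FBLN7 are the filled points on the left.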

How the data were processed

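RNA-seq libraries of LX-2 cells, 3 siLIX1L and 2 control as labelled, were compared. The authors deposited FPKM per gene for 19936 human Ensembl genes, per the file headers, and for siLIX1L 3 also the raw read count and gene length. Bowtie 0.12.2 and the mouse build mm8 are named in the submitters' processing notes while the identifiers are human, so build, counter and strand handling are uncertain. The lengths equal gene spans of GENCODE 29 (GRCh38) for 98.2% of the 19926 genes found there, so coordinates are from that annotation. FPKM times length gave whole reads for 100% of values (tolerance 0.01), equal to the deposited count for all genes of siLIX1L 3.

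RPM was computed from these reads, because 1 FPKM stands for very different read numbers in genes of different span; only FBN1, LTBP3 and LTBP4 reach 1 FPKM in 2 libraries. The test was limma 3.58.1 (R 4.3.3; trend and robust eBayes, two-sided, Benjamini-Hochberg) on log2(RPM + 0.5), genes with at least 1 RPM in at least 2 libraries, without covariates. Alternatives were log2(FPKM + 1), other minimum levels, pseudocount and scalings, edgeR 4.0.16 (quasi-likelihood, TMM), DESeq2 1.42.0, siLIX1L 1 and 2 averaged, removal of a loess fit (span 0.5) on transcript length and GC, a block for the replicate number, and omission of each library. The limma, edgeR and DESeq2 steps were checked on simulated reads with the same dispersion for all libraries. The real pairs of libraries differed in spread, so that check does not tell how reliable the calls are here. Of the files' identifiers, 19808 have a symbol in the name table used. The members and lists were chosen with earlier results of these data known. Named beside the members are, in each list, every gene past the threshold and otherwise those of smallest p up to 4.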

Additional observations from a re-analysis of the deposited data

How the results depend on the processing

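The 8 tested genes kept the sign of their difference in all 131 fits under other settings. FBN1, called in the reported test, was also called in 9 of 17 other settings, and FBLN1 and LTBP4 each passed in 3 and LTBP3 in 1. The count over all genes, 127, became 214 with TMM and 215 with median-ratio scaling, 244 with a minimum of 5 RPM, 76 with quantile normalization and 1673 with DESeq2. It was 0 in limma without a minimum (3647 at an unadjusted p under 0.05), with siLIX1L 1 and 2 averaged (1792) and after removal of the length and GC trend (2915), and ran from 0 to 2907 when 1 library was left out, 0 without any 1 siLIX1L library (1661 to 3090 at an unadjusted p under 0.05). Of the 10 genes, 0 passed without a minimum, with quantile normalization, edgeR, averaging and the trend removed, 3 with DESeq2, and 0 to 4 with 1 library left out. Other fibre proteins had 0 calls with log2(FPKM + 1), where EFEMP1 and FBLN7 fell under the minimum and were not tested (6464 genes were), and 0 without a minimum, with averaging and with the trend removed, 1 with quantile normalization, and 0 to 4 with 1 library left out. Degrading enzymes had 5 calls with DESeq2, 1 each with TMM, median-ratio scaling and the 5 RPM minimum, and 0 to 7 with 1 library left out. Assembly genes had 5 with DESeq2 and 0 to 8 with 1 library left out, and latent TGF-β genes 0 to 2. In each range of calls with 1 library left out, the upper end came from the fit without control 1. That fit has 1 control library and also gave the most calls over all genes. Where no value is given for a cause, the cause was not tested. With the replicate number as a block, which the labels do not tie to shared cultures, 856 genes passed (6.8% of all). Among them were 3 of the 10, 3 other fibre proteins, 4 degrading enzymes, 5 assembly genes and 1 latent TGF-β gene. Library siLIX1L 3 has no partner in that fit. Deviations from the group mean in control 1 correlated with those of siLIX1L 1 at -0.12, and control 2 with siLIX1L 2 at -0.09. With 2 controls, the deviations of control 2 are those of control 1 with the sign reversed, so these are not separate checks. They cannot decide whether the numbers paired the libraries. ELN and MFAP2, at 0 to 3 reads, were under the minimum level and were not tested in limma.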
